A study of Mus musculus with 12 samples.

Results

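Genes of inflammatory and regulated cell death, 8 in number, were followed in primary chondrocytes of the mouse, the cells that build cartilage matrix. They are Nlrp3, Casp1, Casp4, Casp12, Gsdmd, Casp8, Ripk3 and Mlkl. The genes were chosen by symbol and found by Ensembl ID, 8 of the 57010 IDs counted in each library. The rule takes them by name, but they were proposed with earlier results of these data known.

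The libraries fall into 3 groups of 4, labelled Control, WT and SIRT5F101L mutant. By the design text, the cells were transfected with a wild-type plasmid or with one for the F101L mutant of SIRT5, a sirtuin of mitochondria that strips malonyl and other acidic acyl groups off lysine side chains. The labels do not say from which species the plasmid sequences came. The WT group is read here as the wild-type plasmid. The genotype of the cells is given as wild type in every group, and the labels do not say what the Control cells received, nor the strain, age or sex of the mice. Nothing in the labels says that the 4 libraries of a group came from separate cultures or animals, so p-values measure only the spread between these libraries, which may be technical. Library numbers follow the order of deposition and pair nothing.

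Inflammasomes are cytosolic sensor complexes, such as that of NLRP3, which activate caspase-1. Caspase-1, or caspase-11 (the product of mouse Casp4) when it senses bacterial lipopolysaccharide, cuts gasdermin D, whose freed end forms pores in the plasma membrane and kills the cell by pyroptosis. Caspase-8 starts apoptosis below death receptors and restrains necroptosis, in which RIPK3 phosphorylates MLKL and MLKL breaks the plasma membrane. These proteins are held inactive until cleaved, assembled or phosphorylated, so mRNA levels measure supply and not activity.

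Deposited values were raw counts, with 15095357 to 24242139 counts per library. Levels are given as CPM, the count scaled to a common library size after adjustment by the trimmed mean of M-values (TMM). A single count was worth 0.0401 to 0.0649 CPM. Sirt5 had 9 to 16 counts in Control libraries, 1 to 9 in those labelled WT and 9 to 19 in those labelled SIRT5F101L mutant. No rise of Sirt5 was detectable with either plasmid: in edgeR, WT differed from Control by -0.86 on the log2 scale (SE 0.49, adjusted p = 0.143) and SIRT5F101L by 0.03 (SE 0.45, adjusted p = 0.954). Sirt5 counts thus do not bear out the plasmid labels, and every direction below compares libraries by their labels. SIRT5F101L replicate 1 stood apart from the other 3 libraries of its group: without it, edgeR called 2212 genes between the plasmid groups, and with it 6. The 14 chondrocyte markers were all detected, but their summed level was 9331 to 11697 CPM in Control, 2853 to 2966.5 in WT and 2322 to 2567 in SIRT5F101L. Of the 14, 12 fell in each comparison with Control, while Hapln1 rose in both and Acan rose in WT (log2 0.47, SE 0.07, edgeR adjusted p = 1.78e-05). The 18 macrophage and leukocyte markers summed to 243 to 286 CPM in Control, 154 to 174 in WT and 160 to 203 in SIRT5F101L, with Itgam listed at 0 in every library. Of 17 tested, 16 fell in WT and 15 in SIRT5F101L. Cd14 alone rose, from 12.4 CPM in Control to 51.2 in WT and 59.7 in SIRT5F101L, so the sums hold changes in both directions. In bulk RNA, fewer cells of a type and less RNA per cell cannot be told apart. The 8 lymphocyte markers summed to at most 1.01 CPM, with Cd3e, Ms4a1 and Ncr1 among those listed at 0. The 9 fibroblast markers summed to 18286 to 21745 CPM in Control, 7540 to 8615 in WT and 7763 to 8689 in SIRT5F101L, with 5 of 8 tested lower and Pdgfra, Cd34 and Prg4 higher in each comparison. Cd34 went from 7.10 CPM in Control to 57.3 in WT and 59.5 in SIRT5F101L. The 8 osteoblast and hypertrophic markers summed to 63.8 to 73.7, 40.9 to 52.6 and 39.4 to 61.6 CPM, with 3 of 5 tested lower in each. The 8 endothelial markers summed to 6.91 to 7.56, 7.40 to 9.997 and 8.24 to 10.02 CPM, and Vwf alone of the 5 tested was called, higher in each. The part of these marker changes in the results below was not tested.

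Casp4, Gsdmd, Ripk3 and Mlkl were higher, and Casp12 lower, in both plasmid groups than in Control. Casp1 passed the test in WT, and not in SIRT5F101L, while Casp8 and Nlrp3 passed in neither. In WT against Control, the quasi-likelihood test of edgeR, with p-values adjusted by the Benjamini-Hochberg method over all 14253 tested genes, called 6 of the 8 genes at an adjusted p under 0.05, 4 higher and 2 lower. Of all tested genes, 56.8% were called in that comparison, 28.7% higher and 28.1% lower. In SIRT5F101L against Control it called 5 of 8, 4 higher and 1 lower, beside 60.7% of all tested genes, 30.0% higher and 30.7% lower. With 75.0% and 62.5% of only 8 genes called beside such a background, the counts are no result about the 8 genes as a set. The libraries of the groups did not overlap for 6 of 8 genes in WT against Control and for 5 of 8 in SIRT5F101L against Control, beside 53.5% and 51.3% of all tested genes. The median log2 difference over the 8 genes was 0.34 and 0.31, and over all tested genes -0.01 and -0.02. Both comparisons share the 4 Control libraries.

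**Figure D1:**
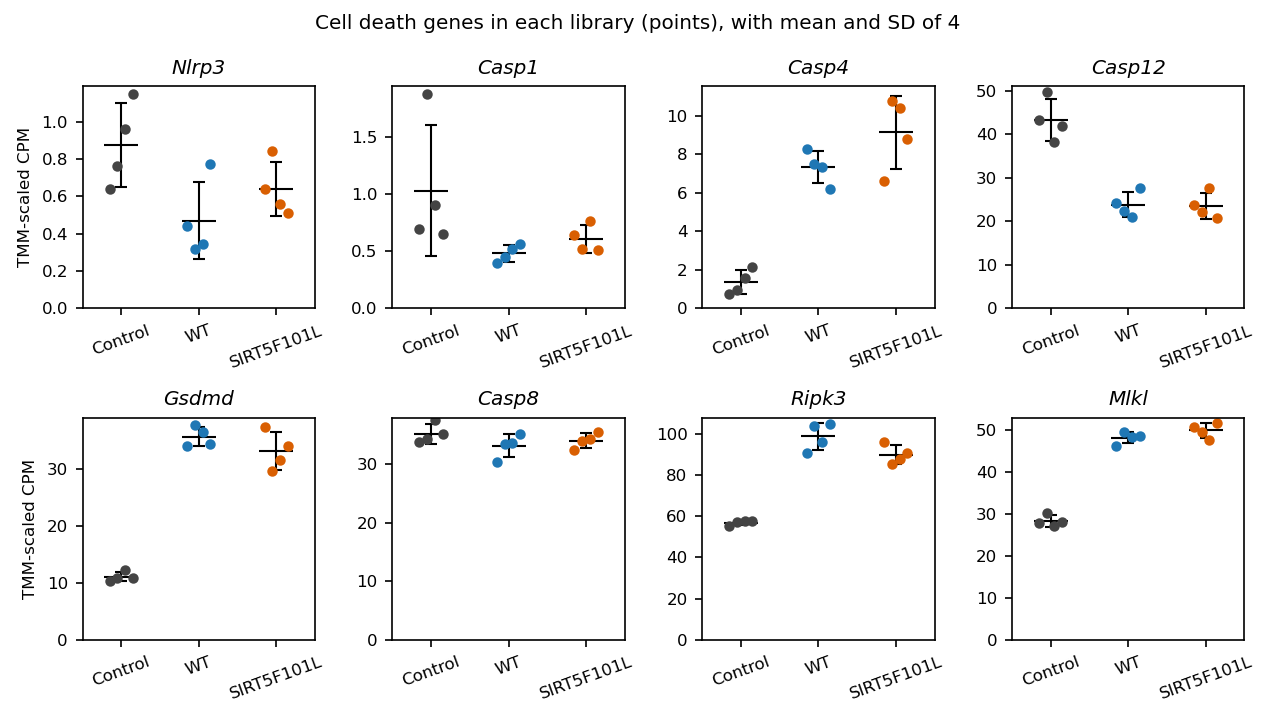
Level of each of the 8 genes in CPM (TMM-scaled, linear axes from 0 that differ between panels) in the 4 Control, 4 WT and 4 SIRT5F101L libraries. Points are libraries, and black marks give the mean and SD of 4. Casp4 sits at 0.755 to 2.13 CPM in Control and at 6.22 to 10.8 CPM with either plasmid, while the Casp8 points of the 3 groups overlap.

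Casp1, Casp4 and Casp12 are neighbours on chromosome 9, in this order among protein-coding genes of RefSeq, with Gria4 before and Pdgfd after them. Stretches before the starts of Casp4 and Casp12 are shown because the neighbours moved in opposite directions and each stretch holds motif matches of its own. Both are of the plus strand of GRCm38.p6, from the RefSeq promoter table, and run from -130 to -21 relative to the start. The submitters' processing notes name GRCm39, so these positions are not those of the counted annotation. Capitals mark the kappaB match in Casp4 and the gamma-activated site matches in Casp12.
Casp4, chr9:5308719-5308828: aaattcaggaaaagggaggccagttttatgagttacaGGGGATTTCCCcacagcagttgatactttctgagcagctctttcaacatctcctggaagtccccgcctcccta
Casp12, chr9:5345346-5345455: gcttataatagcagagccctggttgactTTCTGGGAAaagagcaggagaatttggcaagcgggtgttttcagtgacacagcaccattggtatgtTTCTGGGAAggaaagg

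The motifs, 4 in all, were searched on both strands in windows of 250 bases before and 50 after the start, which the RefSeq table held for 7 of the 8 genes. The kappaB consensus, the site of NF-kappaB factors, matched at -93 to -84 and, overlapping it, at -92 to -83 in Casp4. The table gives Casp4 another start as well, from which the same letters lie at -104 to -95 and -103 to -94. It matched in 4.51% of all 32851 windows. Among the other genes it matched in 1 of the 2 windows of Nlrp3. The gamma-activated site TTCNNNGAA, the palindrome bound by STAT dimers, matched at -102 to -94 and at -36 to -28 in Casp12 and in none of the other 6 genes, beside 8.30% of all windows. The interferon-stimulated response element core GAAANNGAAA matched in none of the 7 genes and in 3.44% of all windows. The shorter motif of interferon regulatory factors, AANNGAAA, which every match of that core also contains, matched in Casp4, Casp8, Casp12 and Nlrp3, beside 23.9% of all windows. Its matches in Casp4 and Casp12 lie outside the stretches shown. No motif searched matched in Casp1, Ripk3 or Mlkl. A match describes letters and not a bound site, and the part of any match in the changes of level was not tested.

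Nlrp3 (ENSMUSG00000032691, chromosome 11), the sensor that answers to potassium loss and membrane damage, was near the limit of detection. Its counts were 11, 15, 18 and 21 in Control libraries 1 to 4, 9, 5, 6 and 15 in WT, and 12, 13, 14 and 9 in SIRT5F101L. The WT and SIRT5F101L ranges overlapped that of Control. The mean was 0.876 ± 0.223 CPM (SD, n = 4) in Control, 0.470 ± 0.207 in WT and 0.639 ± 0.147 in SIRT5F101L. The log2 difference from Control was -0.87 (SE 0.38, edgeR adjusted p = 0.0574) in WT and -0.47 (SE 0.36, edgeR adjusted p = 0.276) in SIRT5F101L. Without WT replicate 4, the highest of its group, the WT difference was -1.21 with an edgeR adjusted p of 0.0198, and without Control replicate 1 it was -0.99 with an edgeR adjusted p of 0.0469. It was -0.92 and passed as well with upper-quartile scaling (edgeR adjusted p = 0.0450) and with the length trend of each library as an offset (edgeR adjusted p = 0.0497).

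Casp1 (ENSMUSG00000025888), the caspase that matures interleukin-1 beta and interleukin-18, also had few counts. Control libraries held 12, 37, 17 and 12 counts, WT libraries 8, 7, 9 and 11, and SIRT5F101L libraries 12, 8, 19 and 9. Every WT library lay below every Control library in CPM, 0.394 to 0.565 against 0.655 to 1.87, while SIRT5F101L at 0.510 to 0.761 overlapped Control. The log2 difference was -1.10 (SE 0.39, edgeR adjusted p = 0.0223) in WT and -0.75 (SE 0.38, edgeR adjusted p = 0.0935) in SIRT5F101L. Control replicate 2 carried much of the WT call: without it the difference was -0.64 with an edgeR adjusted p of 0.164, and without WT replicate 1 it was -1.01 with an edgeR adjusted p of 0.0618. The difference between the plasmid groups was 0.35 (SE 0.42, edgeR adjusted p = 0.743), so the WT and SIRT5F101L effects on Casp1 were not shown to differ. Macrophage and leukocyte markers fell in the same comparisons, 16 of 17 tested in WT and 15 of 17 in SIRT5F101L, with Cd14 higher in both. Their part in the Casp1 and Nlrp3 values was not tested.

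Casp4 (ENSMUSG00000033538), which encodes caspase-11, the intracellular receptor for lipopolysaccharide, rose most of the 8 genes in both comparisons. Control libraries 1 to 4 had 13, 19, 30 and 39 counts, and the plasmid libraries had 168, 117, 127 and 121 in WT, and 124, 166, 259 and 155 in SIRT5F101L. In CPM these were 0.755, 0.962, 1.60 and 2.13, then 8.28, 7.50, 7.33 and 6.22, then 6.62, 10.8, 10.4 and 8.78. The lowest plasmid library was above the highest Control library. The fold difference was 5.36 in WT (log2 2.42, SE 0.24, edgeR adjusted p = 3.17e-08) and 6.68 in SIRT5F101L (log2 2.74, SE 0.23, edgeR adjusted p = 3.71e-09). Leaving out any single library kept the WT value between 2.23 and 2.71 on the log2 scale.

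Casp12 (ENSMUSG00000025887), a caspase of the same inflammatory subfamily that is linked to the endoplasmic reticulum, fell. It had 747, 981, 721 and 768 counts in Control, 492, 350, 363 and 540 in WT, and 447, 340, 690 and 368 in SIRT5F101L. On the CPM scale Control libraries held 38.4 to 49.7, WT libraries 21.0 to 27.8 and SIRT5F101L libraries 20.8 to 27.6. Control stood clear of both plasmid groups, which overlapped each other. Casp12 was 1.81-fold lower in WT (log2 -0.86, SE 0.10, edgeR adjusted p = 6.21e-07) and 1.83-fold lower in SIRT5F101L (log2 -0.87, SE 0.10, edgeR adjusted p = 4.72e-07).

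Within the neighbouring caspases the balance therefore shifted. Of the counts of Casp1, Casp4 and Casp12 together, Casp4 made up 1.68% to 4.76% in Control, 18.0% to 25.5% in WT and 21.3% to 32.3% in SIRT5F101L. Casp12 made up 93.8% to 96.8% in Control, against 72.8% to 80.4% in WT and 66.2% to 76.7% in SIRT5F101L. These shares compare counts between groups and not levels between genes, since transcript lengths differ.

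Gsdmd (ENSMUSG00000022575, chromosome 15), the pore-forming target of caspase-1 and caspase-11, rose about as clearly. Counts were 180, 214, 232 and 199 in Control, 693, 589, 633 and 671 in WT, and 700, 457, 791 and 601 in SIRT5F101L. Control averaged 11.1 ± 0.837 CPM (SD, n = 4), with 35.7 ± 1.71 in WT and 33.2 ± 3.32 in SIRT5F101L, and the lowest plasmid library, at 29.7 CPM, lay far above the Control range of 10.4 to 12.3. Gsdmd was 3.21-fold higher in WT (log2 1.68, SE 0.09, edgeR adjusted p = 2.11e-12) and 2.98-fold higher in SIRT5F101L (log2 1.58, SE 0.09, edgeR adjusted p = 5.65e-12).

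Casp8 (ENSMUSG00000026029, chromosome 1), the initiator of death-receptor apoptosis, had 581, 679, 707 and 643 counts in Control, 617, 522, 584 and 685 in WT, and 606, 523, 858 and 626 in SIRT5F101L. In CPM, 33.7 to 37.6, 30.4 to 35.2 and 32.4 to 35.5 overlapped. The log2 difference was -0.09 (SE 0.07, edgeR adjusted p = 0.318) in WT and -0.05 (SE 0.07, edgeR adjusted p = 0.572) in SIRT5F101L. Of the Casp8 transcript, 5.03% had a near-identical copy elsewhere, and the other 7 genes had none and shared no exon with another gene.

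Ripk3 (ENSMUSG00000022221, chromosome 14), the kinase of the necrosome, had 954, 1127, 1083 and 1053 counts in Control, 1834, 1614, 1665 and 2035 in WT, and 1799, 1314, 2182 and 1598 in SIRT5F101L. Control libraries lay within 55.4 to 57.6 CPM, and every plasmid library lay at 85.3 CPM or above. Ripk3 was 1.73-fold higher in WT (log2 0.79, SE 0.06, edgeR adjusted p = 1.20e-09) and 1.58-fold higher in SIRT5F101L (log2 0.66, SE 0.06, edgeR adjusted p = 1.90e-08).

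Mlkl (ENSMUSG00000012519, chromosome 8), the membrane-breaking substrate of RIPK3, moved by a like amount. Its counts were 480, 597, 509 and 515 in Control, 939, 772, 837 and 944 in WT, and 951, 764, 1188 and 914 in SIRT5F101L. That was 27.1 to 30.2 CPM in Control, 46.3 to 49.5 in WT and 47.6 to 51.8 in SIRT5F101L, with the plasmid groups clear of Control. The fold was 1.70 in WT (log2 0.76, SE 0.07, edgeR adjusted p = 4.05e-09) and 1.76 in SIRT5F101L (log2 0.82, SE 0.07, edgeR adjusted p = 1.34e-09).

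**Figure D2:**
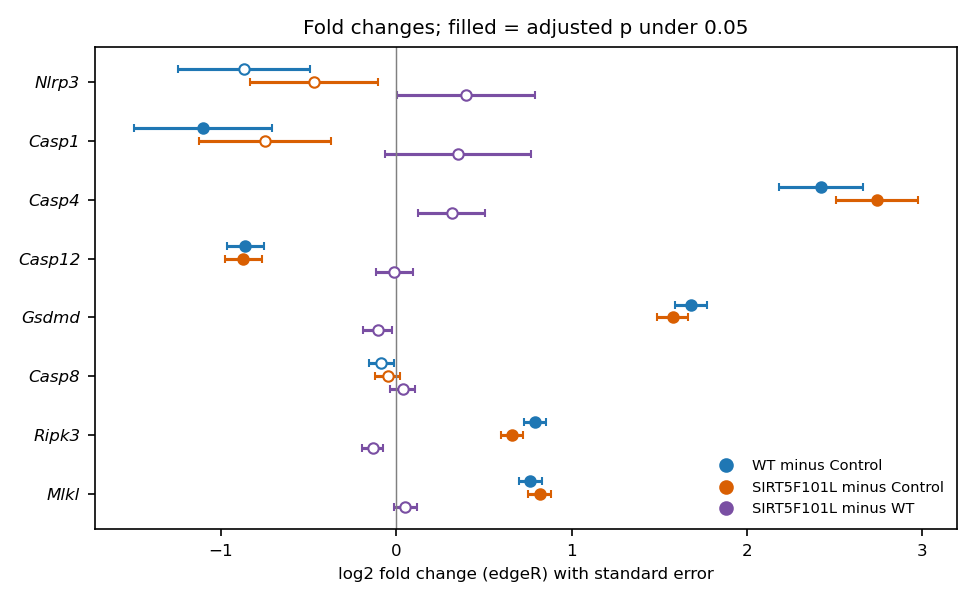
Log2 difference of each of the 8 genes in the 3 comparisons, with bars of 1 SE. Filled points passed an edgeR adjusted p under 0.05 and open ones did not. Casp4 reaches 2.42 and 2.74 against Control, Casp12 lies at -0.86 and -0.87, and all 8 points of SIRT5F101L against WT are open.

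Between the plasmid groups, edgeR called 0 of the 8 genes. The edgeR background was 0.0421% of all tested genes, 0.0281% higher and 0.0140% lower. DESeq2 also called 0 of the 8, beside 0.298% of the 12755 genes to which it gave an adjusted p. In edgeR 1 of the 8, Ripk3, had an unadjusted p under 0.05. Ripk3 differed by -0.13 on the log2 scale (SE 0.06, edgeR adjusted p = 0.409), with 98.6 ± 6.64 CPM in WT and 89.8 ± 4.69 in SIRT5F101L (SD, n = 4). Casp4 differed by 0.32 (SE 0.19, edgeR adjusted p = 0.504). The other 6 genes differed by -0.10 to 0.40, and the median of the 8 was 0.04 beside 0.00 for all tested genes. For none of the 8 did the groups' libraries separate, beside 4.02% of all tested genes. Without SIRT5F101L replicate 1 edgeR still called 0 of the 8, with adjusted p of 0.0622 for Ripk3 and 0.0805 for Casp4, beside 15.2% of all genes then tested. Against Control, 5 of the 8 were called in SIRT5F101L without that library too, beside 63.2% of all genes then tested.

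Levels of different genes were compared per kilobase of exon. In Control, Ripk3 was highest at 24.8 ± 0.453 CPM per kb (SD, n = 4). Mlkl at 12.3, Casp8 at 12.2 and Casp12 at 11.3 followed, and neighbours among these overlapped. Gsdmd was at 4.68, and Casp1 at 0.690, Casp4 at 0.367 and Nlrp3 at 0.216 came last, again overlapping. In WT the order was Ripk3 at 43.0, Mlkl at 20.9, Gsdmd at 15.0, Casp8 at 11.5, Casp12 at 6.21, Casp4 at 1.98, Casp1 at 0.322 and Nlrp3 at 0.116 CPM per kb, with no overlap between neighbours. SIRT5F101L had the same order, from 39.2 for Ripk3 to 0.158 for Nlrp3, also with no overlap between neighbours. Gsdmd thus stood below Casp12 and Casp8 in Control and above both in the plasmid groups. With the longest transcript as length, Casp12 ranked 2 and Casp4 ranked 6, ahead of Casp1, in Control.

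**Figure D3:**
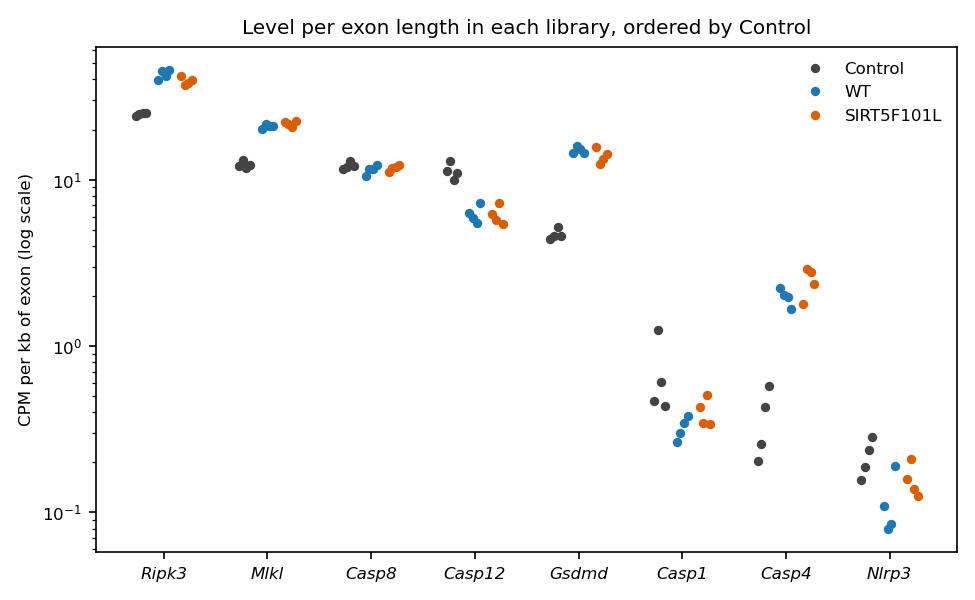
CPM per kilobase of exon (log axis) in each library, genes ordered by their Control mean. Points are libraries. Ripk3 is highest in all 3 groups, and Gsdmd moves from 4.68 in Control to 15.0 in WT and 14.0 in SIRT5F101L.

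The other genes of the pathways came from 8 lists that share some genes, so tallies by list overlap. Together they hold 96 genes that are not among the 8. Of these, 65 passed the expression filter, and 31 did not. Genes listed at 0 in every library numbered 11: Nlrp1a, Mefv, Txnip, Gsdmc3, Igtp, Bak1, Diablo, Bcl2l2, Bcl2a1b, Bcl2a1d and Xiap. All 2414 IDs of the X chromosome, where Xiap lies, were listed at 0, and widely expressed genes such as Bak1 and Diablo are among the 11, so a 0 here is not read as absence. In WT against Control 29 of the 65 rose and 13 fell, or 64.6% called beside the 56.8% of all tested genes. In SIRT5F101L against Control 30 rose and 15 fell, or 69.2% beside 60.7%. The median log2 difference of the 65 was 0.14 in each.

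Inflammasome sensors and adaptors were mostly below the filter. Only 8 of 19 were tested, of which 3 were called in WT and 4 in SIRT5F101L, smaller shares than the 56.8% and 60.7% of all tested genes. In each comparison 3 rose: Nek7, the kinase that licenses NLRP3, Pstpip1, which binds pyrin, and the channel gene Panx1. Nek7 went from a mean of 88.3 CPM in Control to 158.6 in WT (log2 0.84, SE 0.06, edgeR adjusted p = 3.00e-10) and 172 in SIRT5F101L (log2 0.96, SE 0.06, edgeR adjusted p = 3.78e-11). Pycard, the ASC adaptor between sensor and caspase-1, averaged 2.26 CPM in Control, 1.71 in WT and 1.24 in SIRT5F101L, and 12.8% of its exons overlap a gene on the other strand. It fell in SIRT5F101L (log2 -0.85, SE 0.26, edgeR adjusted p = 0.00728) and did not pass in WT (log2 -0.41, SE 0.25, edgeR adjusted p = 0.172). Its plasmid groups did not differ by the test (log2 -0.45, SE 0.26, edgeR adjusted p = 0.499).

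Of 12 other genes of pyroptosis output, 5 were tested, of which 5 were called in WT and 4 in SIRT5F101L, beside 56.8% and 60.7% of all tested genes. Gsdme, another pore-forming gasdermin, Ninj1, which ruptures the membrane of dying cells, and the alarmin Il33 rose in both comparisons. Hmgb1, another alarmin, fell in WT (log2 -0.22, SE 0.08, edgeR adjusted p = 0.0178) and did not pass in SIRT5F101L (log2 -0.09, SE 0.07, edgeR adjusted p = 0.317). It was named after its values were seen. Il18, a cytokine matured by caspase-1, fell from 6.78 CPM in Control to 2.89 in WT (log2 -1.23, SE 0.19, edgeR adjusted p = 1.28e-05) and 2.76 in SIRT5F101L (log2 -1.30, SE 0.19, edgeR adjusted p = 5.98e-06). Macrophage and leukocyte markers fell beside Pycard and Il18 too, and their part was not tested. Il1b, the other cytokine matured by caspase-1, was not tested: it held at most 7 counts in a Control library, 0 in WT and at most 4 in SIRT5F101L.

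Some guanylate-binding proteins and immunity-related GTPases open bacterial membranes so that caspase-11 meets its ligand. Of 8 genes of these families, listed whether or not their products do so, 6 were tested. In WT 5 rose and in SIRT5F101L 6, with none lower, beside 28.7% and 30.0% of all tested genes called higher. Gbp5 rose by 2.55 (SE 0.22, edgeR adjusted p = 3.35e-09) in WT and 2.71 (SE 0.21, edgeR adjusted p = 1.06e-09) in SIRT5F101L on the log2 scale, from 1.34 CPM in Control. Gbp3 rose by 1.48 and 1.59, and Gbp7, which shares 11.3% of its exons with another gene, by 1.75 and 1.87. The median log2 difference over the 6 was 1.33 and 1.41.

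Around Casp8, 7 of 13 tested genes of extrinsic apoptosis rose and 2 fell in WT, and 6 rose and 2 fell in SIRT5F101L. The shares called, 69.2% and 61.5%, lie near the 56.8% and 60.7% of all tested genes. Cflar, the FLIP gene whose product pairs with caspase-8 and blocks its apoptotic activity, lies beside Casp8 on chromosome 1. It went from 73.7 CPM in Control to 209 in WT (log2 1.50, SE 0.07, edgeR adjusted p = 4.80e-13) and 237 in SIRT5F101L (log2 1.68, SE 0.07, edgeR adjusted p = 7.39e-14). Of its transcript, 15.4% had a near-identical copy elsewhere, so its level is uncertain to that extent. Tnfaip3, the A20 enzyme that edits ubiquitin on RIPK1, rose by 1.82 and 1.85, and Birc3, a ubiquitin ligase of the receptor complex, by 0.95 and 1.10, with the limit that 12.7% of the Birc3 transcript had a near-identical copy. Fas, the death receptor, fell from 43.6 CPM to 15.5 in WT (log2 -1.49, SE 0.10, edgeR adjusted p = 8.31e-11) and 16.8 in SIRT5F101L (log2 -1.38, SE 0.10, edgeR adjusted p = 2.40e-10).

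Genes of mitochondrial apoptosis were mixed. Of 11 tested activators, 3 rose and 4 fell in WT, and 4 rose and 6 fell in SIRT5F101L, or 63.6% and 90.9% called beside 56.8% and 60.7% of all tested genes. Bcl2l11 (BIM) fell by 0.99 and 0.76 on the log2 scale and Bbc3 (PUMA) fell by 0.57 and 0.85, while Pmaip1 (NOXA) rose by 0.78 and 1.07. Bok was at -0.43 in WT, a call lost without WT replicate 3 (-0.31, edgeR adjusted p = 0.159) and without 4 other libraries in turn, Control replicates 1, 2 and 3 and WT replicate 4 (-0.46 to -0.37). Bok also did not pass in WT by DESeq2 (-0.43, adjusted p = 0.0623) or with the length trend as an offset (-0.36, edgeR adjusted p = 0.0588). Bmf fell by 0.83 in SIRT5F101L, a call lost without Control replicate 1 (-0.69, edgeR adjusted p = 0.0559) or SIRT5F101L replicate 3 (-0.70, edgeR adjusted p = 0.0515). Of 6 tested inhibitors, 4 rose in WT and 4 rose and 1 fell in SIRT5F101L, or 66.7% and 83.3% called beside 56.8% and 60.7% of all tested genes. Cflar, counted under extrinsic apoptosis as well, is 1 of those that rose. Among those that rose in both were Bcl2 by 1.03 and 1.32 and Bcl2l1, chosen after its values were seen, by 0.89 and 0.80. Mcl1 fell by 0.19 in SIRT5F101L and was at -0.10 in WT, where it did not pass. In WT it did pass with upper-quartile scaling (-0.15, edgeR adjusted p = 0.0165) and with the length trend as an offset (-0.14, edgeR adjusted p = 0.0287). The plasmid groups were not called different for it. Casp9, the initiator caspase that the apoptosome activates, went from 15.8 CPM in Control to 13.1 in WT (log2 -0.27, SE 0.09, edgeR adjusted p = 0.0132) and 11.1 in SIRT5F101L (log2 -0.50, SE 0.09, edgeR adjusted p = 6.43e-05). With no filter beyond 1 count, the WT difference of Casp9 did not pass (-0.27, edgeR adjusted p = 0.0621).

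Beside Ripk3 and Mlkl, 7 of 13 genes of necroptosis rose and 2 fell in WT, and 7 rose and 1 fell in SIRT5F101L. Here too 69.2% and 61.5% were called, near the 56.8% and 60.7% of all tested genes. Zbp1, a sensor of Z-form nucleic acid that binds RIPK3, rose most, from 7.16 ± 0.768 CPM (SD, n = 4) in Control to 55.8 ± 3.76 in WT (log2 2.96, SE 0.09, edgeR adjusted p = 2.57e-16) and 58.8 ± 3.41 in SIRT5F101L (log2 3.04, SE 0.09, edgeR adjusted p = 1.70e-16). Ripk1, the kinase upstream of RIPK3, rose by 0.23 (edgeR adjusted p = 0.00182) and 0.25 (edgeR adjusted p = 0.000857), but with each library's length trend as an offset it was at 0.11 and 0.05 and passed in neither. Ticam1, the TRIF adaptor that links Toll-like receptor 3 to RIPK3, fell by 0.65 and 0.63. Hsp90aa1, a chaperone of RIPK3, rose from 504 CPM in Control to 889 in WT and 1007 in SIRT5F101L, but 68.7% of its transcript had a near-identical copy.

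**Figure D4:**
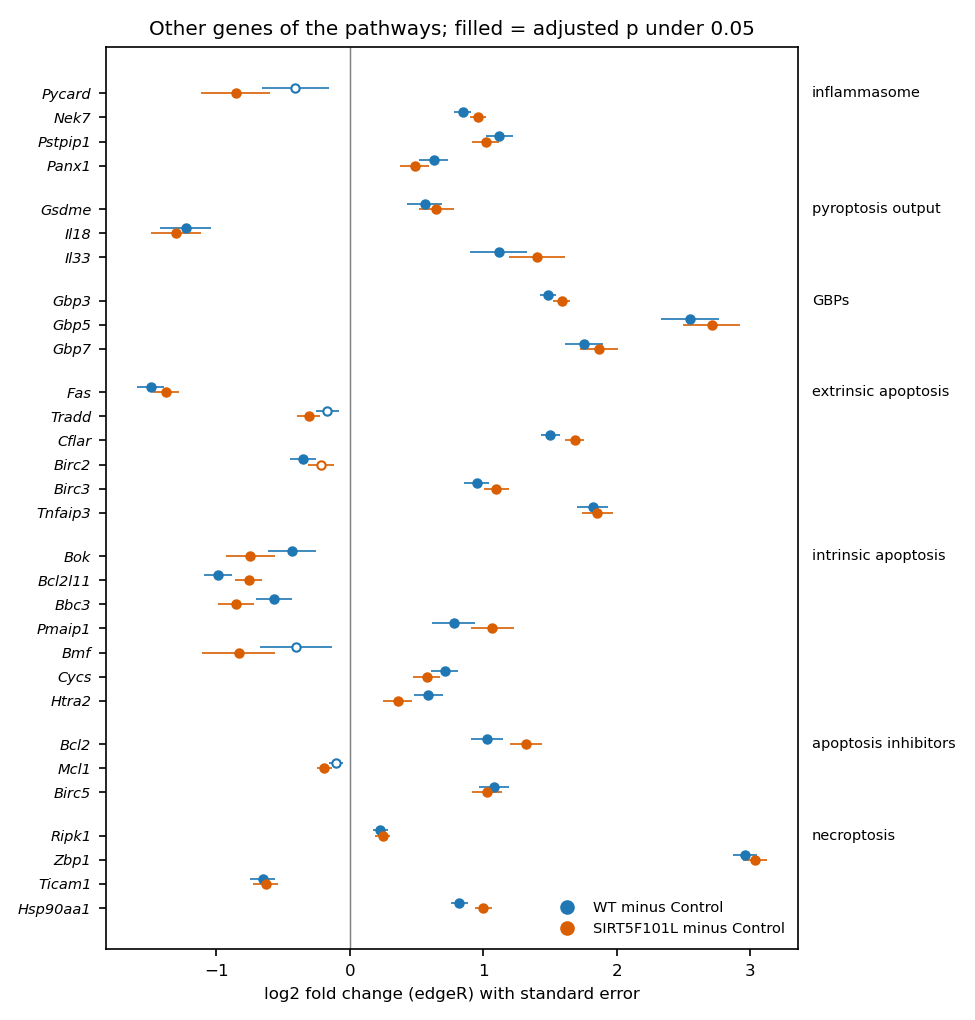
Log2 difference from Control of other named genes of the death pathways, without the list of apoptotic caspases, in WT and SIRT5F101L, with bars of 1 SE. Filled points passed an edgeR adjusted p under 0.05 and open ones did not. Zbp1 lies at 2.96 and 3.04 and Gbp5 at 2.55 and 2.71, and Fas lies lowest at -1.49 in WT and -1.38 in SIRT5F101L.

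Between the plasmid groups edgeR called 0 of the 65 pathway genes. Without SIRT5F101L replicate 1 it called 11, beside 15.2% of all genes then tested: Bax, Htra2, Adar, Cflar, Ninj1, Tlr3, Apaf1, Cycs, Bad, Bok and Cdc37. That fit also tested Tnf, Naip5 and Gsdmc4, which are outside the 65. Beside such a background, the count is no result about the pathway genes as a set. Near-identical copies covered more of the Htra2 and Cycs transcripts than of Cflar, so both levels are uncertain. Htra2 also shares exon with genes on the other strand. Both count among the activators that rose against Control. Bax, the pore former of mitochondrial apoptosis, then differed by -0.41 (SE 0.07, edgeR adjusted p = 0.000234). These 11 were named after their values were seen.

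Ratios of counts within a library do not depend on library scaling, and 5 were computed, chosen after the values were seen. Casp4 over Casp12 was 0.0174 to 0.0508 in Control, 0.224 to 0.350 in WT and 0.277 to 0.488 in SIRT5F101L. Cflar over Casp8 was 1.92 to 2.30 in Control, 5.60 to 7.37 in WT and 6.42 to 7.33 in SIRT5F101L. The Control libraries lay below those of each plasmid group in both ratios, and in Zbp1 over Ripk3 and Casp4 over Casp1. Exact 2-sided permutation tests of the 5 ratios were computed as well. Since the pairs were picked with their values in view, those p-values support nothing, and the ratios are given as a description.

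Mlkl over Ripk3 varied less, at 0.470 to 0.530 in Control, 0.464 to 0.512 in WT and 0.529 to 0.581 in SIRT5F101L. The WT libraries overlapped those of Control, and so did the SIRT5F101L libraries, whose mean was 0.557 against 0.498 in Control. All 4 SIRT5F101L libraries lay above all 4 WT libraries in this ratio and in Zbp1 over Ripk3, which was 0.553 to 0.576 in WT and 0.640 to 0.667 in SIRT5F101L. These separations are a description too. As single genes, Zbp1, Ripk3 and Mlkl were not called by edgeR between the plasmid groups. Of all tested genes taken singly, 4.02% had separate libraries in that comparison, and no such share was computed for ratios. Both ratios are over Ripk3, so they are not independent of each other.

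**Figure D5:**
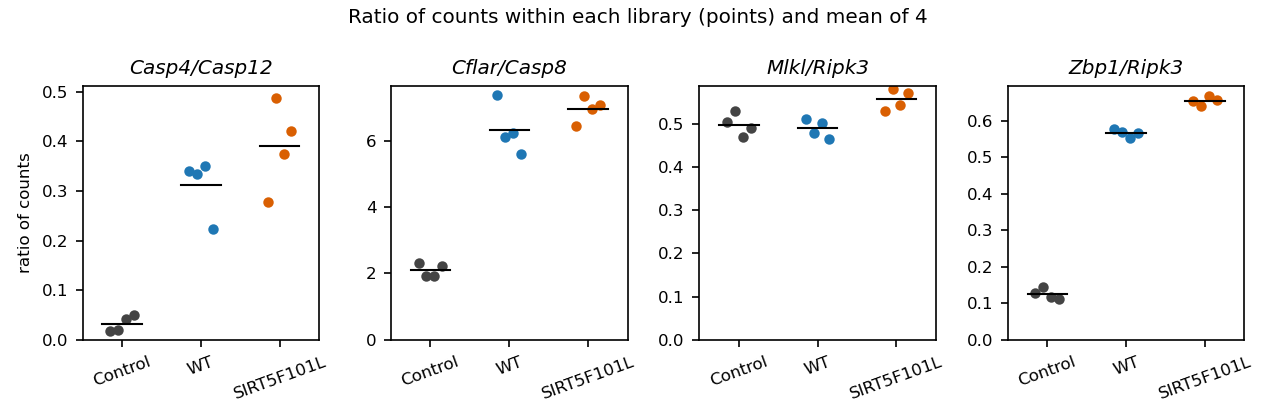
Ratio of counts of 2 genes within each library for 4 of the 5 pairs. Points are libraries and bars the mean of 4. Casp4 over Casp12 and Cflar over Casp8 lie lower in Control than with either plasmid, and Mlkl over Ripk3 lies at 0.464 to 0.581 throughout.

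Genes most like each of the 8 were found by the root mean square difference of log2 CPM, centred on each gene's mean, over the 12 libraries. The libraries fall into groups, so this likeness mostly restates the size of the group differences. Gsdmd, which itself varied by 0.771, was nearest Bcl3 at 0.0776, Kcnn4 at 0.0793 and Smox at 0.0915. Ripk3 (0.351) was nearest Tubb6 at 0.0454, then Noa1 and Pomgnt2, and Mlkl (0.376) was nearest Eaf1 at 0.0575, then Tom1l1 and Car9. Casp4 (1.28) was nearest Rnf152 at 0.236, then Sdk1 and Cp. Casp12 (0.434) was nearest Hint3 at 0.106, then Gmds and Lum, the gene of the matrix proteoglycan lumican. Casp8 (0.0714) was nearest Gnpat at 0.0426, then Tm9sf2 and Ctr9. The nearest genes of Casp1 (C1ql3, Hykk, Brd3os) and Nlrp3 (Ccdc125, Zfp952, Plch2) lay at 0.240 to 0.284, against 0.497 and 0.456 for the 2 genes themselves.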

How the data were processed

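Poly(A)-selected RNA was sequenced as 150 bp paired-end reads, per the labels' protocols. The deposited values are raw counts per Ensembl gene ID, made by the authors. The submitters' processing notes name FastQC 0.11.9, HISAT2 2.2.1, HTSeq 2.0.2, DESeq2 1.38.3 and the builds GRCm39 and mm39. Strand setting and annotation are not given in the sources used here. Symbols came from a supplied Ensembl table, which matched 52029 of 57010 IDs. All 12 libraries were fitted with edgeR 4.0.16 (R 4.3.3): TMM scaling, the default expression filter by group, quasi-likelihood tests with 9 residual degrees of freedom and 2-sided p adjusted over 14253 genes. The standard error is the log2 difference over the square root of F. The biological coefficient of variation was 9.18%. The pipeline was tested on simulated data. Exon lengths, overlaps (bedtools 2.31.1) and copies (BLAST 2.17.0) came from GENCODE M21, of an older build.

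The members and lists were chosen with earlier results of these data known. Named genes were the 8 members, up to 3 called genes in each direction per list and comparison with at least 1 CPM, a few fixed genes (Il1b, Il18, Pycard, Gsdme, Casp9, Ripk1, Zbp1, Cflar), and the 3 genes most like each member. A few genes that the rule takes are not reported here. Alternatives were RLE and upper-quartile scaling, other filters, DESeq2 1.42.0, a robust prior, 8-library fits, a length offset (loess span 0.5) and leaving out each library.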

Additional observations from a re-analysis of the deposited data

Results flagged for a closer look

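Of 39 sets of 4 library values examined, 1 held a library far from the other 3. The ratio of Casp4 to Casp12 counts in WT replicate 4 was 0.224, against 0.334 to 0.350 in the other WT libraries. Its gap to the nearest library was 0.876 of the group's range, above Dixon's critical value for 4 values. Chance marks about 1 in 20 such sets. That library had 121 Casp4 and 540 Casp12 counts.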

How the results depend on the processing

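Across 20 alternatives and 90 gene values, 1760 recomputed values kept their direction and their side of the threshold, 11 newly passed it, 15 no longer passed and 5 changed sign. The changes of sign concern plasmid differences near 0. The SIRT5F101L minus WT value of Casp8 ran from -0.00459 to 0.0662 when each library was left out. That of Casp12 ran from -0.101 to 0.0697, and was 0.00717 with the length offset. The cause was not tested. Calls among the 8 genes ran from 5 to 7 in WT against Control, stayed at 5 in SIRT5F101L against Control and at 0 between the plasmids. The share of all tested genes called ran from 32.5% to 61.3%, from 34.6% to 64.6% and from 0.00% to 15.2% in these comparisons. The number of pathway genes called between the plasmids was 1 with no filter beyond 1 count (Bax, -0.28, edgeR adjusted p = 0.0263) and ran from 0 to 11 when each library was left out, with 11 without SIRT5F101L replicate 1. The filter on a mean of 1 CPM removed Casp1 and Nlrp3, whose few counts limit both. No paired analysis was possible because the labels give no replicate numbers shared between groups.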

Other observations

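Some pathway genes did not pass the expression filter of the fit over all 12 libraries and are given as values. Tnf, the ligand that can start both apoptosis and necroptosis, had 6 to 19 counts in the Control libraries, 0 to 5 in WT and 0 to 5 in SIRT5F101L. Naip1, a sensor of bacterial needle proteins, had 0 to 2 counts in Control, 5 to 10 in WT and 5 to 17 in SIRT5F101L. Both genes were picked after their values were seen, and no call is given for either.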
